A study of Bos taurus with 42 samples.

Results

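The piRNA cluster at chromosome 23, 13905000 to 14137856 (assembly UMD3.1, also named bosTau8), spans 232857 bases of the cattle genome. It was followed here through oocytes, 2 kinds of embryo and 2 kinds of cultured cell by small RNA sequencing. Its entries were the rows of the deposited table whose first listed hit is this cluster: 487 of 12345 rows in all, and of 9474 rows whose first hit is any of 616 piRNA clusters. Of these, 68 were exact rows, with no mismatch written at any hit, and 419 were mismatch rows, with a base change written at 1 hit or more. A row is named by an annotation and not by a molecule. All 12345 row names differ, and each lists up to 3 hits. It is assumed here that reads which share an annotation share a row, so that a row can pool many different piRNAs, but the sources used here do not state this. The table holds no base sequences of the reads, so none is shown.

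Piwi-interacting RNAs are small RNAs of the germ line that are loaded onto PIWI proteins and guide the silencing of transposons and the cleavage of transcripts. Most derive from long single-stranded precursors transcribed from clusters, which are cut into pieces whose 3′ ends are trimmed and methylated. Cattle oocytes, unlike those of mice, carry abundant piRNAs and a further PIWI protein, PIWIL3.

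Libraries of RNA under 200 nt were made from 3 pools of MII oocytes, from 3 samples of ear fibroblasts and from embryos and cells of 2 origins. IVF embryos were fertilised in vitro with semen of a Holstein bull. NT embryos were made by somatic cell nuclear transfer, in which the nucleus of a fibroblast, here serum-starved and at passage 4 or 5, replaces that of an oocyte. The fibroblasts came from the ear of 1 cross-bred (Brahma/Spanish) bull, so the NT embryos carry the nuclear genome of a single male. Embryos of both kinds were cultured on cumulus cells and collected in pools of 20 as 2-cell embryos on day 2, 8-cell embryos on day 3, morulae on day 6 and blastocysts on day 8. Blastocyst-derived cells were grown from blastocysts of each kind. IVF gave 4, 3, 4, 3 and 4 libraries at these 5 steps, and NT gave 4, 4, 3, 4 and 3. No label says that the libraries of a group came from separate animals, so p-values measure the spread between these libraries, which may be partly technical.

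Values are given as normalised reads, which are the deposited log2 values turned back to reads divided by each library's size factor. The 42 libraries held 25119 to 3081186 listed reads (median 608571.5). The cluster took 7012 to 264043 of them in 30 oocyte and embryo libraries. The IVF morula libraries labelled replicates 1 and 3 stood apart, with 0 and 246 cluster reads. The counts of called rows and some further results are also given without them. All other tests include them. Every row of the table was found in NT 2-cell replicate 4, so piRNAs missing from that library are not listed at all. Of the 487 cluster rows, 0 to 354 were found in each of the other libraries. The labels were set beside miRNA markers. Epithelial and trophectoderm markers, summed over the 3 of 7 with a row, had a median of 956 normalised reads in oocytes and 0 in fibroblasts. They were lower in blastocysts, at medians of 226 in IVF and 112 in NT, so this list does not mark those cells alone. The 5 of 6 fibroblast markers with a row had medians of 790 in oocytes and 1454 in fibroblasts. The fibroblast markers overlapped between oocyte (534 to 907) and fibroblast libraries (573 to 7548), and had a median of 10455 in IVF blastocyst-derived cells. Cumulus markers (4 of 4 with a row) were at medians of 3551 in oocytes, 3006 in IVF blastocysts and 46173 in IVF blastocyst-derived cells. They were also at 8941 in fibroblasts, so this list does not mark cumulus cells alone. Blood markers (5 of 6 with a row) were at 83.3 in oocytes and 7.87 in fibroblasts. The part of these other cells in the results was not tested.

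The cluster kept a nearly constant place among piRNAs, and its proportion moved little from the oocyte to the blastocyst while its level fell. Its share of piRNA normalised reads lay between 15.9% and 18.3% (median 17.6%) over the 30 libraries. Oocytes stood at 17.2%, 17.7% and 17.7%. NT 8-cell embryos stood at 17.9%, 17.5%, 18.1% and 17.9%. IVF blastocysts stood at 17.08%, 16.04% and 17.004%, and NT blastocysts at 16.01%, 16.95%, 17.05% and 15.9%, so all 7 blastocyst libraries lay below all 3 oocyte libraries. The closest pair were oocyte replicate 1 (17.16%) and IVF blastocyst replicate 2 (17.08%). Their 95% intervals for counting error overlap, at 17.04% to 17.28% and 16.82% to 17.35%. The 3 NT morula libraries also lay below the oocytes, at 16.8%, 16.8% and 16.9%. IVF morula replicate 4 did too, at 16.7%, but IVF morula replicate 2 stood at 18.2%, above all 3 oocyte libraries. The step is of about 1 percentage point: the oocyte mean was 17.5% ± 0.325 (SD, n = 3), the mean of IVF blastocysts 16.7% ± 0.580 (n = 3) and that of the NT ones 16.5% ± 0.610 (n = 4). No test was made of these sums, since the cluster was chosen with results of these data known. Over the same 30 libraries the largest cluster, at chromosome 6, 110178897 to 110333441, took 31.1% to 35.4% and the cluster at chromosome 17, 62734087 to 62862016, took 16.2% to 19.0%.

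Against everything listed, miRNAs and tRNA fragments included, the cluster fell from a major component to a trace. It held 15.5%, 16.2% and 15.6% of listed normalised reads in oocytes and 13.2% to 16.4% in the 8 2-cell libraries. In 8-cell embryos it held 12.2% to 14.0% in IVF and 13.7% to 16.3% in NT. Morulae ranged from 7.86% to 12.3% in NT, and IVF morulae stood at 14.7% and 12.4% in replicates 2 and 4 against 0% and 0.979% in replicates 1 and 3. Blastocysts held 3.53% to 5.50% in IVF and 2.21% to 5.05% in NT, and no blastocyst library reached any library of an earlier stage other than those 2 IVF morulae. In fibroblasts the share was at most 0.00206%, from 6, 22 and 4 reads, and in blastocyst-derived cells at most 0.000519%, from 0 to 16 reads. In pooled embryos fewer piRNA-bearing cells and less piRNA per cell cannot be told apart, and a share also falls when other RNAs rise.

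**Figure D1:**
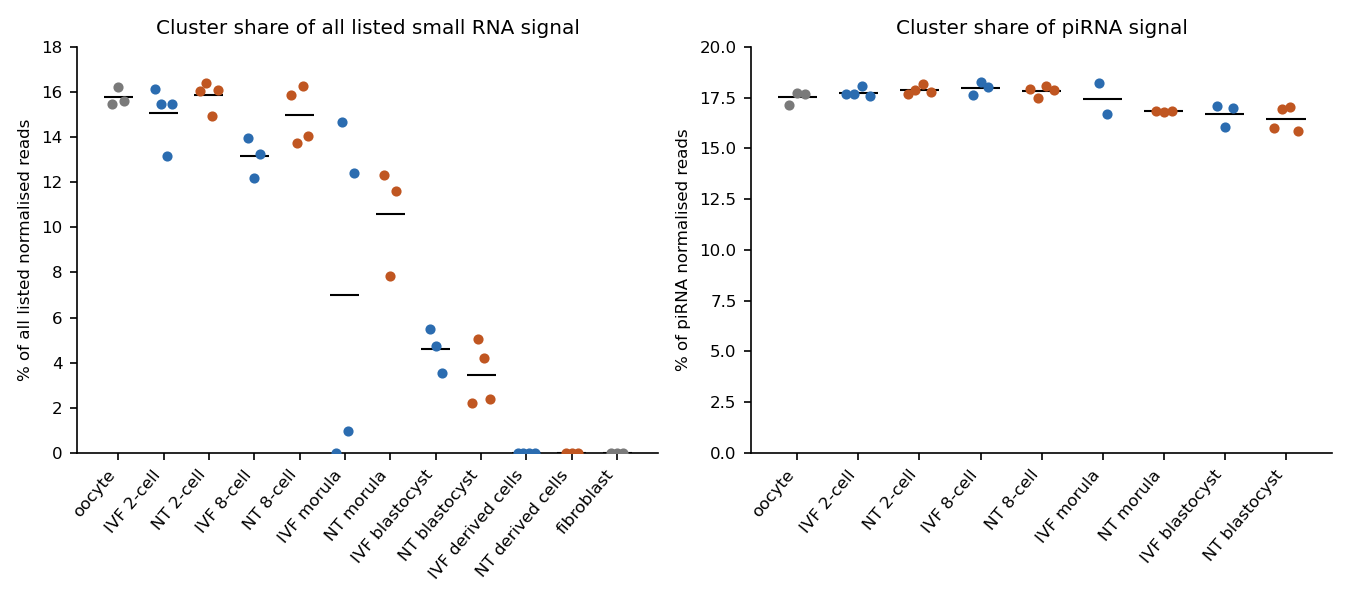
Share of normalised reads in the chromosome 23 cluster, 1 point per library and a bar at the group mean: of all listed small RNAs on the left (12 groups) and of piRNAs on the right (9 groups, without IVF morula replicates 1 and 3). Grey is oocytes and fibroblasts, blue is IVF and orange is NT. The left panel falls from 15.5% or more in oocytes to 2.21% to 5.50% in blastocysts, while the right panel stays between 15.9% and 18.3%.

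A single row carried nearly all of the cluster. Exact entry 1, which lists the cluster and the larger interval around it (chromosome 23, 13851174 to 14138004, of which the cluster is 81.2%) and nothing else, gave 87.7% to 92.0% of the cluster's normalised reads in each of the 30 libraries. It is the only exact row with no hit outside that interval. On the assumption above it would pool the reads that match this cluster alone. Of the other exact rows, 64 also list a cluster on another chromosome. Among the mismatch rows 228 stay within the interval and 189 list a cluster elsewhere. Rows listing nothing outside the interval, 229 in all, gave means of 93.6% to 94.8% of the cluster signal in the 9 groups. By contrast 157 other clusters, 150 of them on other chromosomes, are listed beside this one by at least 1 row, and the chromosome 6 cluster is listed by 27 rows of which 5 are exact. Exact rows together gave 91.6% to 95.2% of the signal. Rows with a change at the first hit gave 3.266% to 6.597%, and rows with a change only at a later hit gave 0.757% to 2.60%. Few rows were abundant: 7 averaged 1000 or more normalised reads in oocytes, 44 averaged 100 or more and 205 averaged 10 or more. In oocytes 155 rows (27 exact) were found in all 3 libraries and 128 (16 exact) in none. Across the 30 libraries 22 rows, 9 of them exact, were found in every one. In each library 1 or 2 rows reached 90% of the signal, 5 to 10 reached 95%, and 32 to 118 reached 99%.

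Exact entry 1 was at 286797, 366104 and 248288 normalised reads in the 3 oocyte libraries. IVF 2-cell embryos had 391656, 237797, 75706 and 255221, and NT 2-cell embryos had 331466, 377791, 133619 and 284426. Both sets overlap the oocytes, with replicate 3 lowest in each. The 8-cell libraries had 139542, 146806 and 90670 in IVF and 247158, 116556, 344253 and 100947 in NT. The NT libraries at this stage spread more widely than the IVF libraries and overlap them, and IVF replicate 4 is the lowest of all 7. Morulae had 72102, 42042 and 67471 in NT and 118691 and 89086 in IVF replicates 2 and 4, against 0 and 2845 in replicates 1 and 3. Blastocysts had 13376, 13209 and 10692 in IVF and 5284, 11313, 9301 and 3765 in NT, below every 8-cell library. In fibroblasts the row was at 1.17, 5.43 and 0.298 normalised reads, from 2, 20 and 4 reads. In blastocyst-derived cells it had 0, 0, 0 and 3 reads in IVF and 0, 0 and 11 in NT, so the row that dominated oocytes was at the floor of these cultures.

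**Figure D2:**
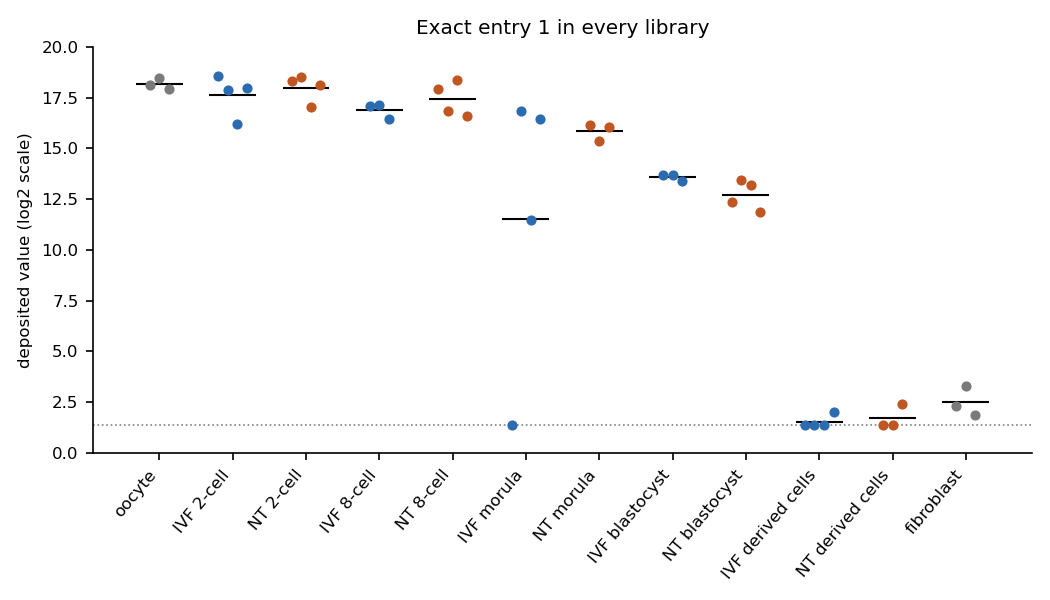
Deposited log2 value of exact entry 1 in each of the 42 libraries, with a bar at the group mean; the dotted line is the lowest value of the table, which stands for 0 reads. Blastocysts lie below the 8-cell libraries, and fibroblasts and blastocyst-derived cells lie at or near the dotted line, as does IVF morula replicate 1.

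The change of exact entry 1 from the 8-cell stage to the blastocyst was estimated with limma, a linear model fitted to the log2 values of all 12039 rows that passed a filter on low values, with p-values adjusted over all of them by the Benjamini-Hochberg method and a row called at an adjusted p under 0.05. The row fell by 4.72 ± 1.60 on the log2 scale (SE) in NT embryos, with an adjusted p of 0.0129. In IVF embryos the estimate was -3.31 ± 1.85 with an adjusted p of 0.220, although the 3 blastocyst libraries lie below the 3 8-cell libraries. The model shares 1 estimate of spread over all groups, and that spread includes the 2 IVF morula libraries that stood apart. Without them the IVF estimate was -3.31 ± 0.922 with an adjusted p of 0.00523, and the NT change had an adjusted p of 1.58e-06. The difference between the NT and IVF changes was -1.40 ± 2.45 (adjusted p = 0.996). When each library was centred on its median row, the limma changes were -2.36 in IVF (adjusted p = 0.598) and -2.91 in NT (adjusted p = 0.167). The call in NT was thus not made under that scaling, which adds 0.96 in IVF and 1.81 in NT to the change of every row.

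Exact entry 2 took a growing part of a shrinking cluster. It lists clusters on chromosome 3 (55455007 to 55462962) and chromosome 13 (10507008 to 10514800) beside this one. It gave 0.680%, 0.608% and 0.544% of the cluster's normalised reads in oocytes. IVF blastocysts had 3.23%, 2.01% and 1.94%, and NT blastocysts 1.94%, 2.20%, 2.10% and 2.12%. Every blastocyst library was above all oocyte, 2-cell and 8-cell libraries, where the highest was 0.995%, and the IVF morulae (1.68% and 0.922%) and NT morulae (1.20%, 1.369% and 0.956%) lay between or beside them. The oocyte mean was 0.611% ± 0.0683 (SD, n = 3), against 2.39% ± 0.727 for IVF (n = 3) and 2.09% ± 0.109 for NT (n = 4) blastocysts. Its own level nevertheless dropped, from 2164, 2450 and 1487 normalised reads in oocytes to 492, 293 and 236 in the IVF and 113, 283, 217 and 88.9 in the NT blastocyst libraries. In NT embryos the drop from the 8-cell stage was -3.08 ± 1.07 on the log2 scale (limma adjusted p = 0.0154), which became -2.71 with an adjusted p of 0.0625 without NT 8-cell replicate 3. The other exact row that lists this chromosome 3 cluster, exact entry 15, averaged 31.6 normalised reads in oocytes, against 25.6 (IVF) and 17.7 (NT) at the blastocyst stage. The 22 rows that list it averaged 0.652% of the cluster in oocytes, against 2.66% (IVF) and 2.37% (NT) at that stage. Exact entry 2 is 1 of the 22 and alone gave 0.611%, 2.39% and 2.09%, so the set mostly restates that row. Mismatch entry 52, the highest mismatch row among them in oocytes, fell from a mean of 49.3 normalised reads to 1.12 (IVF) and 1.11 (NT). These rows were set apart after their values were seen, so they carry no test.

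The next 6 exact rows were minor but were found in all 30 libraries. Exact entry 3 also lists chromosome 23, 14633020 to 14641865, and chromosome X, 38333358 to 38339278. It varied most between libraries of 1 group, with 0.981%, 0.0809% and 0.890% of the cluster in IVF 8-cell embryos and 2.58%, 1.03% and 0.0666% in NT morulae. Exact entry 4, shared with chromosome X, 73404001 to 73411298, was steadier at 0.236% to 0.627% over the 30 libraries. Exact entry 5, shared with chromosome 8, 81465055 to 81474987, ranged from 0.0851% to 0.870%. Exact entries 6 (chromosome 13, 11230014 to 11247655 and 11350034 to 11373704), 7 (chromosome 8, 81382090 to 81387225) and 8 (chromosome 3, 91459106 to 91465677) stayed at or below 0.311%. All 8 leading exact rows had negative estimates from the 8-cell stage to the blastocyst in both kinds of embryo. All 8 were called in NT, and exact entries 4, 6, 7 and 8 were also called in IVF, with adjusted p-values of 0.0209, 0.0124, 0.0341 and 0.0311 by limma. These IVF calls did not withstand leaving out 1 library. Exact entry 7 was lost without any one of the 6 IVF 8-cell and blastocyst libraries (adjusted p = 0.0511 to 0.109), and exact entries 4 (0.0531 to 0.0716) and 8 (0.0640 to 0.113) without any one of them other than IVF 8-cell replicate 4. Exact entry 6 was lost without IVF 8-cell replicate 3 (adjusted p = 0.0538) or IVF blastocyst replicate 4 (adjusted p = 0.0618).

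The mismatch rows differed in how evenly they were spread over libraries. A change is written here as the base before the arrow in the row's name, its position in the read and the base after the arrow. The sources used here do not say from which end positions are counted or which of the bases is the genome's. Mismatch entry 1 matches this cluster exactly and carries T23C only at its chromosome 13 hit (10507008 to 10514800), the same interval that exact entry 2 lists. It gave 2.26%, 1.84% and 1.3699% of the cluster in oocytes. IVF blastocysts had 1.17%, 0.555% and 0.782%, and the NT ones 1.04%, 1.23%, 0.756% and 0.421%. All blastocyst libraries were below all oocyte libraries, the opposite of exact entry 2. It fell by 4.06 ± 1.23 on the log2 scale in IVF (limma adjusted p = 0.0157) and by 5.47 ± 1.06 in NT (adjusted p = 2.78e-05). The IVF call was lost without IVF 8-cell replicate 2 or 3 or IVF blastocyst replicate 3 or 4 (limma adjusted p = 0.0585 to 0.0658).

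Mismatch entries 2, 3 and 4 carry T14A, G17A and G17T at both hits on chromosome 23, and list no other cluster. Mismatch entry 2 was among the steadiest rows, at 0.430% to 0.973% of the cluster in the 30 libraries, a coefficient of variation of 0.184. Mismatch entry 3 ranged from 0.278% to 1.88%. Mismatch entry 4 varied most of the 3. It had 0 reads in 12 of 30 libraries, in which the cluster had 7012 to 189934 reads, so that a count of 0 allows at most 0.00158% to 0.0428% of the cluster (counting error only). In the other 18 libraries it ran from 0.00432%, from 3 reads in IVF 8-cell replicate 2, up to 2.89% in IVF blastocyst replicate 4, so its lowest values lie within the limits for a count of 0. Oocytes were at 0.416%, 0% and 0.108%, so libraries with and without the row occurred in 1 group, and its coefficient of variation was 2.02. Of the 44 rows with a mean of 100 or more normalised reads in oocytes it was the only row with estimates above 0 from the 8-cell stage to the blastocyst, at +1.02 in IVF and +0.42 in NT, neither of them called.

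Mismatch entries 5 (G3A) and 6 (C22T) rose and fell together between libraries, although they carry changes at different positions. Oocytes had 10.1, 681 and 728 normalised reads of the former and 0, 529 and 735 of the latter. Replicate 1 was far below replicates 3 and 4 in both. Over the 30 libraries their percentages of the cluster had a Pearson correlation of 0.881, given as a description only. The pair was picked after its values were seen, and both rows share the same libraries and depth. Mismatch entry 4 against mismatch entry 3, which change the same position, gave -0.203.

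Mismatch entry 8 (T25A) all but vanished from blastocysts. It gave 0.0854%, 0.126% and 0.136% of the cluster in oocytes. IVF blastocysts had 0%, 0% and 0.00717%, and the NT ones 0%, 0.0333%, 0% and 0%. In the 5 libraries at 0, with 7012 to 18249 cluster reads, a count of 0 allows up to 0.0164% to 0.0428%, which is below the oocyte range. Its log2 changes from the 8-cell stage, at -5.09 ± 0.86 in IVF (adjusted p = 0.000137) and -5.62 ± 0.75 in NT (adjusted p = 3.64e-08), exceed in size the fall of the dominant exact row, which was not compared with it by a test. Mismatch entry 11, which matches this cluster and carries C13T at chromosome 10, 47887037 to 47954001, had changes of -4.96 ± 0.88 and -5.82 ± 0.76 (adjusted p = 0.000187 and 3.64e-08).

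**Figure D3:**
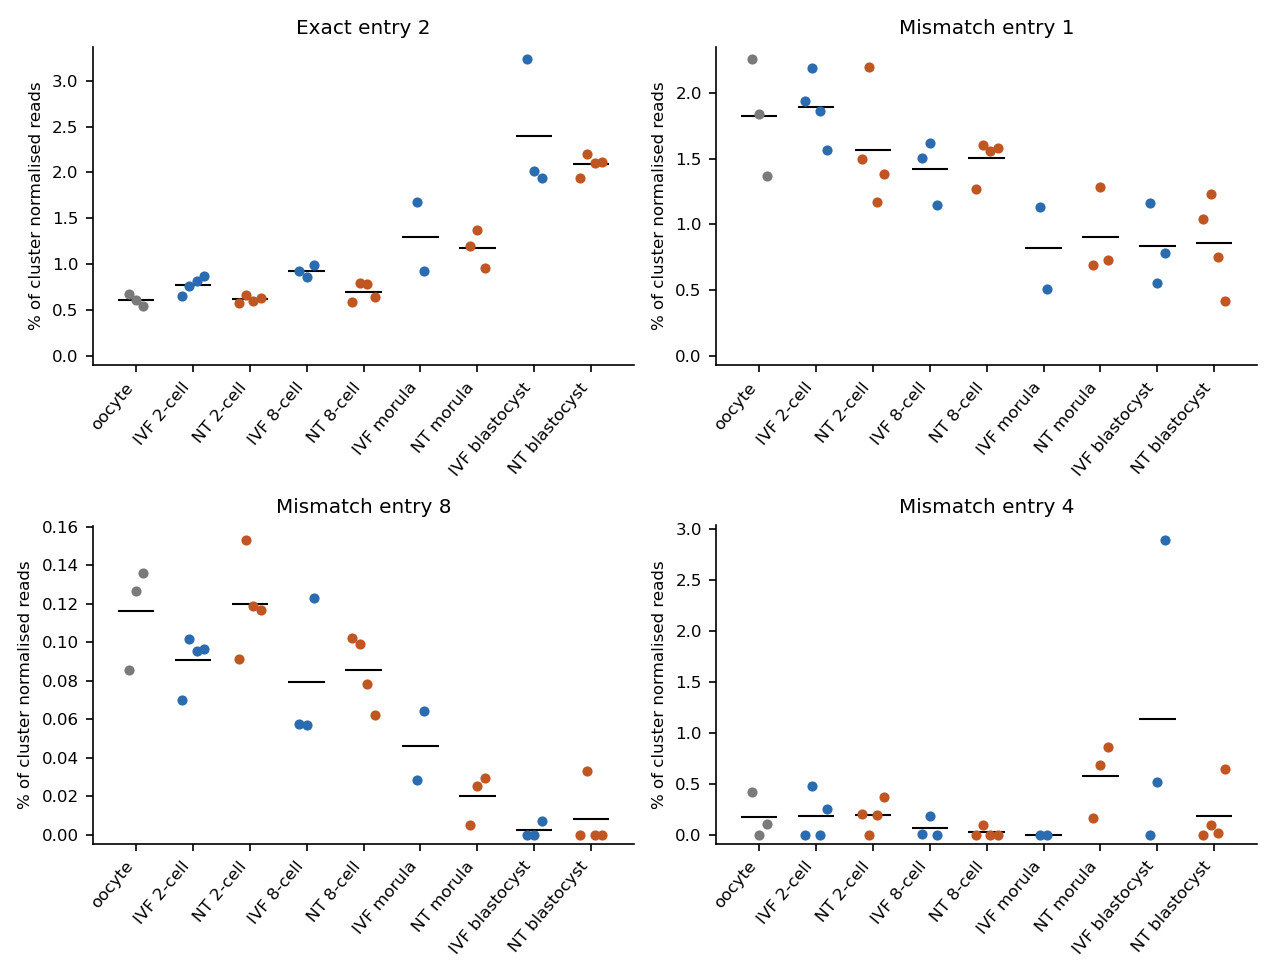
Percent of the chromosome 23 cluster's normalised reads in 4 of its rows, 1 point per library (30 libraries, without IVF morula replicates 1 and 3) and a bar at each group mean; grey is oocytes, blue IVF and orange NT. Exact entry 2 climbs to 1.94% to 3.23% in blastocysts, mismatch entries 1 and 8 decline, and mismatch entry 4 is at 0 in 12 libraries and reaches 2.89% in IVF blastocyst replicate 4.

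Base changes made up a smaller part of this cluster than of the chromosome 6 cluster or of all other piRNA clusters pooled, given as a description. In oocytes rows with a change at the first hit gave 4.77% of the cluster's signal (range 4.48% to 5.26%). They gave 7.95% for the chromosome 6 cluster and 3.40% for the chromosome 17 cluster. All other piRNA clusters pooled, with chromosomes 6 and 17 included, stood at 23.8%. In blastocysts the shares were 5.43% (IVF) and 4.49% (NT) for chromosome 23, 10.46% and 10.98% for chromosome 6, and 2.10% and 1.94% for chromosome 17. Transitions, changes between A and G or between C and T, were 204 of the 360 such rows (56.7%). The share was 53.3% for chromosome 6, 64.7% for chromosome 17 and 63.6% of the 6833 such rows of all other clusters, those 2 included. By signal, G-to-A changes gave 29.3%, T-to-A 21.7% and C-to-T 12.5% of the cluster's mismatch signal in oocytes. The rows at positions 14 and 17, led by mismatch entries 2 to 4, gave 0.890% and 0.987% of the cluster there.

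One set of mismatch rows was higher in 2-cell embryos than in oocytes: 13 rows with a change to A at positions 26 to 28. They gave 0.278% to 0.348% of the cluster in the 3 oocyte libraries. They gave 0.612% to 0.971% in IVF and 0.668% to 0.948% in NT 2-cell embryos, so all 8 libraries were above all oocytes. At the 8-cell stage they stood at 0.411% to 0.619% in IVF and 0.509% to 0.691% in NT, still above the oocytes. By the morula they were back at 0.226% to 0.329%, and blastocysts spread from 0.137% to 0.542%, around the oocyte range. The 8 rows with a change to C, G or T at the same positions gave 0% to 0.0384% in every library. The 81 rows with a change to A at positions 1 to 25 overlapped between oocytes (1.99% to 2.70%) and NT 2-cell embryos (1.75% to 2.92%) and gave 2.47% to 2.84% in IVF 2-cell embryos.

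The same rise was present outside chromosome 23. In all other piRNA rows the 207 with a change to A at these positions gave 0.299% to 0.328% in oocytes, 0.559% to 0.919% in IVF and 0.548% to 0.940% in NT 2-cell embryos. Most of the cluster's share came from few rows at position 27. Mismatch entry 10 (C27A) was at means of 364 normalised reads in oocytes, 843 in IVF and 824 in NT 2-cell embryos and 6.90 and 6.43 in the blastocysts. Mismatch entry 29, a G-to-A change, went from 113 to 267 and 430, whereas mismatch entry 17, a T-to-A change, was at 213, 190 and 283. Positions, bases and groups were chosen after the values were seen, so no test was made.

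**Figure D4:**
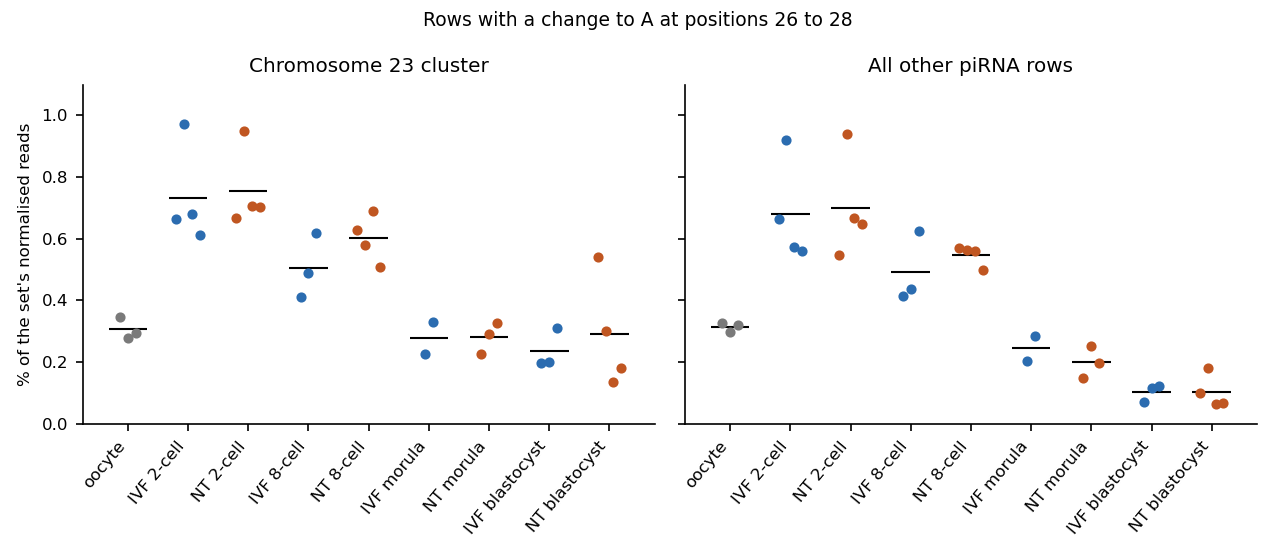
Percent of the signal in rows with a change to A at positions 26 to 28, for the chromosome 23 cluster (13 rows) and for all other piRNA rows (207 rows), 1 point per library with a bar at the group mean; grey is oocytes, blue IVF and orange NT. Both panels rise from about 0.3% in oocytes to between 0.5% and 1% in 2-cell embryos and are lower again in morulae.

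From the 8-cell stage to the blastocyst every cluster row that passed the test was lower, and the rest of the rows, most of them in IVF, did not pass it. In IVF embryos 111 of the 477 cluster rows that passed the filter on low values were called lower, 16 exact and 95 mismatch rows, where 17.6% of all tested rows were called, 17.2% lower and 0.365% higher. In NT embryos 246 were called lower, 33 exact and 213 mismatch rows, where 45.7% of all tested rows were called, 44.4% lower and 1.35% higher. The median log2 change of the cluster was -1.02 in IVF and -1.38 in NT, beside -0.77 and -1.13 over all rows tested and -0.90 and -1.30 over the other piRNA rows. With every library centred on its median row the counts dropped to 2 in IVF and to 76 in NT, of which 41 were then higher and 35 lower. Centring adds 0.96 in IVF and 1.81 in NT to the change of every row. A row without reads in blastocysts can therefore come out higher, as exact entry 49 did in NT (+0.22). Most calls were lost under this scaling, but it cannot tell a row at the floor from one that rose. Of the 111 rows called in IVF, 105 (94.6%) were also called in NT, and these are 42.7% of the NT calls. Over all tested rows the shares were much the same, with 1959 shared calls being 92.7% of the 2113 IVF and 35.6% of the 5506 NT calls. The NT and IVF series share no libraries, but both comparisons take the spread of each row from 1 model over all groups. The 2 lists of calls are therefore not independent. No row differed in its change between NT and IVF by the test of the difference (0 of 477, 8 at an unadjusted p under 0.05), where 0% of all tested rows were called.

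Rows under 10 normalised reads in oocytes were called least often, in this cluster and in other piRNA rows. Of cluster rows under 10 normalised reads in oocytes, 16 of 272 (5.88%) were called lower in IVF, against 4.39% of other piRNA rows at that level. Of rows at 100 to 1000, 31 of 37 (83.8%) were, against 76.2%. At 1000 or more the share was lower again, at 4 of 7 (57.1%) against 61.8%. In NT the figures were 77 of 272 (28.3%, against 28.2%), 36 of 37 (97.3%, against 99.1%) and 7 of 7 (100%, against 97.8%). The median log2 changes at 100 to 1000 were -3.17 in IVF and -4.36 in NT, beside -3.13 and -4.09 for other piRNA rows, so rows of like abundance moved by like amounts.

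Among the exact rows named for their size of change, exact entry 10 (also at chromosome 10, 80713002 to 80732026) fell by 3.90 ± 0.84 in IVF (adjusted p = 0.00105) and by 4.86 ± 0.73 in NT (adjusted p = 3.5e-07). Exact entry 6 had the largest called drop of an exact row in NT, at -5.14, and -3.37 in IVF. Exact entry 12 (also at chromosome 9, 96256050 to 96267016) had changes of -3.82 ± 0.77 and -3.61 ± 0.66. It is the one of these 3 whose estimate was not larger in NT.

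**Figure D5:**
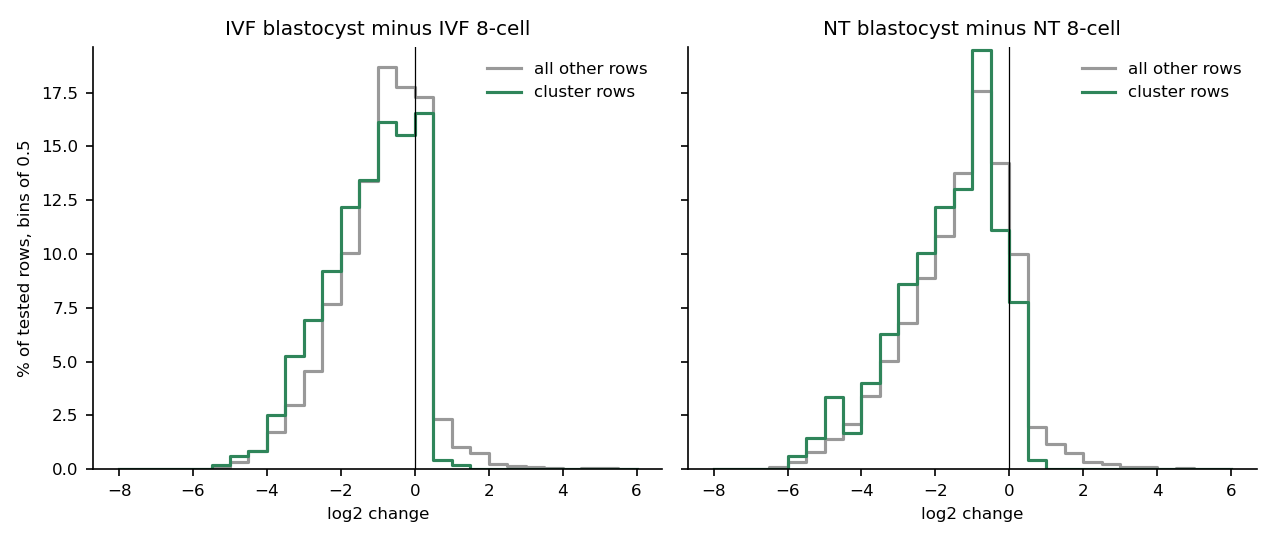
Percent of tested rows in each 0.5-wide bin of the log2 change from the 8-cell stage to the blastocyst, for the chromosome 23 cluster (477 rows) and all other rows, in IVF and NT embryos. The cluster's distribution lies on the negative side, with medians of -1.02 in IVF and -1.38 in NT.

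Between oocyte and 2-cell embryo the abundant rows of the cluster showed no called change, and the calls fell on rare rows. In IVF 2-cell embryos 12 cluster rows were called, 2 higher and 10 lower, where 3.03% of all tested rows were called, 0.789% higher and 2.24% lower. In NT 2-cell embryos 9 were called, all higher, where 2.43% of all tested rows were called, 1.85% higher and 0.581% lower. Every row was found in NT 2-cell replicate 4, so one absent from that library is not listed and could not be called lower. The direction of the NT calls is therefore not read as a result. No row called here averaged over 37.9 normalised reads in any of the 3 groups. The split of the IVF calls turned to 14 higher and 0 lower with libraries centred on their medians, and the counts of both comparisons were 0 when only the groups compared were fitted.

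Mismatch entry 374 (C27A) was found in no oocyte library and was at 20.9, 22.7, 5.85 and 34.2 normalised reads in IVF and 16.6, 13.4, 10.3 and 10.8 in NT 2-cell embryos, from 2 to 9 reads each. Its log2 changes were +3.17 ± 0.61 (adjusted p = 0.000943) and +2.75 ± 0.61 (adjusted p = 0.0057). Mismatch entry 375 (C28A) rose by 2.96 ± 0.67 in NT (adjusted p = 0.0061). These 2 rows belong to the set with a late change to A described above. Exact entry 48, also at chromosome 11, 31263087 to 31276009, rose by 2.46 ± 0.72 in IVF and 2.61 ± 0.72 in NT (adjusted p = 0.0383 and 0.0292). Downward in IVF went exact entries 24 (-2.32 ± 0.68, adjusted p = 0.0382) and 40 (-1.67 ± 0.48, adjusted p = 0.0326) and mismatch entry 102 (A3G, -2.79 ± 0.70, adjusted p = 0.0127). Most of these calls were lost in at least 1 run that left out a single library. Exact entry 48 was lost in IVF without oocyte replicate 1 or 3 or IVF 2-cell replicate 1 or 2 (limma adjusted p = 0.0736 to 0.164), and in NT without oocyte replicate 1 or 3 or NT 2-cell replicate 2 (0.0698 to 0.132). Exact entry 24 was lost without oocyte replicate 1 or 4 or IVF 2-cell replicate 2, 3 or 4 (0.0721 to 0.0995). Exact entry 40 was lost without oocyte replicate 1 (0.169) or 3 (0.180), and mismatch entry 102 without oocyte replicate 3 (0.0975). The calls of mismatch entries 374 and 375 at the 2-cell stage held in each such run. No cluster row was called in either comparison with only the groups compared fitted, or by a limma-voom fit to the recovered reads. Both rows are listed because NT 2-cell replicate 4 holds them, so the direction of their NT calls is not read as a result.

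NT and IVF embryos of the same stage were then compared, since an NT embryo has the oocyte's cytoplasm but no sperm. At the 2-cell stage 15 cluster rows, 1 exact and 14 mismatch, were higher in NT and none lower, where 2.28% of all tested rows were called, 2.16% higher and 0.125% lower. Mismatch entry 158 (A5G) had the largest difference among the mismatch rows. It was at 38.7, 13.4, 27.5 and 71.8 normalised reads in NT and at 0, 0, 2.93 and 0 in IVF, with oocytes at 20.1, 9.80 and 7.03. All NT libraries were above all IVF libraries, a difference of +3.49 ± 0.61 on the log2 scale (adjusted p = 0.000223), and the row was also lower in IVF 2-cell embryos than in oocytes (-2.28 ± 0.65, adjusted p = 0.0335). That second call was lost without oocyte replicate 1 or 3 or IVF 2-cell replicate 1, 2 or 4 (limma adjusted p = 0.0510 to 0.128). Exact entry 49, also at chromosome 21, 14727012 to 14793030, was at 22.1, 13.4, 0 and 9.58 in NT and at 0 in all 4 IVF libraries (+2.17 ± 0.56, adjusted p = 0.020, and 0.0565 by limma without NT 2-cell replicate 1). Both are in the table because NT 2-cell replicate 4 holds them, as it does every row, so a row found only in IVF embryos could not have appeared. The direction of these 15 calls is therefore not read as a result. The IVF value of 2.93 for mismatch entry 158 came from 2 reads. With libraries centred on their medians, or with only the 2 groups fitted, none of the 15 differences was called.

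Later stages gave no called difference between NT and IVF in this cluster. At the 8-cell stage 0 of 477 rows were called (36 at an unadjusted p under 0.05 by limma), where 0.00831% of all tested rows were called. In morulae it was 0 (55 unadjusted), where 0% were called, and also 0 without IVF morula replicates 1 and 3. In blastocysts it was 0 (1 unadjusted), where 0.00831% were called. In blastocyst-derived cells it was 0 (0 unadjusted), where 0% were called. The cluster had 0 to 16 reads in each of those libraries, so that comparison could hardly find a difference and says nothing on likeness. Exact entry 1 differed by +0.35 at the 2-cell stage, +0.53 at the 8-cell stage and -0.87 in blastocysts, with adjusted p-values of 0.947, 0.984 and 1.0. In morulae its difference of +4.31 ± 1.73 (adjusted p = 0.357) turned to -0.80 (adjusted p = 1.0) without IVF morula replicates 1 and 3. A limma-voom fit to the recovered reads called 2 cluster rows higher in NT morulae, exact entry 1 among them (+5.53, adjusted p = 0.00629), with those 2 libraries included.

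Fibroblasts, the source of the NT nuclei, had almost none of the cluster's RNA. Of the 477 rows 234 were lower in fibroblasts, 41 exact and 193 mismatch, and none higher, where 41.8% of all tested rows were called, 40.4% lower and 1.36% higher. The median log2 difference of the cluster rows was -1.56, beside -0.97 over all rows tested and -1.11 over the other piRNA rows. Exact entry 1 differed by -15.68 ± 1.85 (adjusted p = 1.63e-10), mismatch entry 1 by -11.15 and exact entry 2 by -9.60. Only 6 of the 487 rows, 2 of them exact, were found in any fibroblast or blastocyst-derived library. The fitted size of a difference from a group at or near 0 reads depends on how the log2 scale treats low values, so it is no bound.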

How the data were processed

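Per the labels' protocols, an Ion Proton read 42 libraries (12 groups) of RNA shorter than 200 nt. One label gives 3 pools of embryos per stage and the design text gives 4. Trim Galore, DESeq2 and the builds bosTau8 and UMD3.1 are named in the submitters' processing notes, without versions. The authors deposited log2 values with a minimum of 1.367541691, in the form that variance stabilisation gives. Inverting that transform gave normalised reads, and 100% of the 188126 values above the lowest were then whole multiples of 1 read (tolerance 0.01 reads), the smallest being 2 reads. Shares are sums of normalised reads. Library depth ran from 25119 to 3081186 listed reads; limits for a count of 0 take 3 counts and cover counting error only.

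Comparisons used limma 3.58.1 (R 4.3.3) on the deposited log2 values, with all 12 groups in 1 model and no covariate, on the 12039 rows that exceed the table's minimum by 1 log2 unit or more in at least 3 libraries (477 cluster rows: 65 exact, 412 mismatch). Residual degrees of freedom were 30 and the adjusted p threshold was 0.05. The model was tested on simulated data. Described values were made with python 3.11, numpy 2.4.6 and pandas 2.3.3. A count test was not the design; voom on the recovered reads was added after seeing the data. Alternatives were no filter, median centring, only the groups compared, a replicate block and leaving out each library; leaving out IVF morula replicates 1 and 3 was also added later.

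Entries are numbered by falling mean oocyte level. Those named are the 8 exact and 4 mismatch rows highest in oocytes, the exact rows highest in fibroblasts and blastocyst-derived cells, and in each comparison the 3 called exact rows and 1 called mismatch row with the largest change each way. Mismatch entries 5, 6, 8, 10, 17, 29 and 52 and exact entry 15 were named after their values were seen unless a comparison named them. A planned search for pairs with complementary ends was not made, since the rows carry no sequence. The members, lists and markers were chosen with earlier results of these data known.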

Additional observations from a re-analysis of the deposited data

Results flagged for a closer look

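Sets of 4 values, 1 per library of a group, were checked for 1 library far from the other 3. The rule was a gap above Dixon's critical value, which chance flags in about 1 in 20 sets. The 64 sets held the percent of the cluster in each of the 8 exact and 4 mismatch rows highest in oocytes. They also held the cluster's shares of piRNA and of listed signal, and the exact rows' share of the cluster. There were 4 flagged values, all of single rows. Exact entry 7 gave 0.151% of the cluster in NT 2-cell replicate 2, against 0.0832% to 0.0930% in the other libraries of the group. Mismatch entry 1 gave 1.27% in NT 8-cell replicate 1, below the 1.56% to 1.60% of the others. Mismatch entry 4 (G17T) gave 0.0907% in NT 8-cell replicate 2, where the others had none, and 0.645% in NT blastocyst replicate 4, where the others had at most 0.0921%. The same row was at 0 in 12 of the 30 libraries described above.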

How the results depend on the processing

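Numbers of cluster rows called follow, beside the main counts of 15 and 0 for NT against IVF at the 2-cell and 8-cell stages, 12 and 9 for IVF and NT 2-cell against oocyte, 111 and 246 for IVF and NT blastocyst against 8-cell, and 234 for fibroblast against oocyte. Centring libraries on their medians gave 0 for NT against IVF 2-cell, 14 higher and 0 lower for IVF 2-cell against oocyte, 2 and 76 for the blastocysts and 83 for fibroblasts. Fitting only the groups compared gave 0 in each of the 3 2-cell comparisons, 177 for IVF blastocysts and 155 for fibroblasts; no cluster row passed the filter in blastocyst-derived cells. Voom on recovered reads, added after seeing the data, gave 0 in each 2-cell comparison, 2 in morulae, 421 for NT blastocysts and 477 for fibroblasts. Leaving out IVF morula replicates 1 and 3 gave 13 for NT against IVF 2-cell. It gave 13 and 10 for IVF and NT 2-cell against oocyte, 130 and 239 for IVF and NT blastocysts and 230 for fibroblasts. The counts for NT against IVF at later stages stayed at 0, and all 70 calls of named rows held. Centring moved the median of all rows by 0.92 and 0.57 (IVF and NT 2-cell against oocyte), 0.96 and 1.81 (IVF and NT blastocyst against 8-cell), 1.55 (fibroblast), -0.34 and -0.85 (NT against IVF, 2-cell and 8-cell). It reversed exact entry 49 (+0.22) and mismatch entry 375 (+0.13) in NT blastocyst against 8-cell, although both had 0 reads in every NT blastocyst library. Leaving out 1 library at a time gave 11 to 38 for NT against IVF 2-cell (38 without NT 2-cell replicate 3, 23 without replicate 2), 0 to 1 at the 8-cell stage (1 without NT 8-cell replicate 4) and 0 to 30 in morulae (22 and 30 without IVF morula replicates 2 and 4). It gave 11 to 24 for IVF 2-cell against oocyte (24 without IVF 2-cell replicate 1, 21 without oocyte replicate 4) and 8 to 36 for NT 2-cell against oocyte (21 without oocyte replicate 4; 17, 14, 36 and 20 without NT 2-cell replicates 1 to 4). It gave 53 to 104 for IVF blastocysts (60 and 53 without IVF 8-cell replicates 2 and 3; 62, 62 and 59 without IVF blastocyst replicates 2, 3 and 4), 195 to 272 for NT blastocysts and 189 to 222 for fibroblasts. Blastocysts, blastocyst-derived cells and the difference of changes stayed at 0 in all runs. Same-numbered libraries did not deviate together (0 of 10 comparisons with every pair above 0.1; r from -0.087 to 0.466); with a replicate block the counts were 16, 10, 12, 109, 248 and 233 for the 2-cell comparisons (NT against IVF, IVF and NT against oocyte), the 2 blastocyst comparisons and fibroblasts. The cause of these shifts was not tested. Of the 70 calls of named rows, centring lost 35 and reversed 2. With only the groups compared 56 held and 10 were lost, and the rest were not tested because their rows did not pass the filter there. Voom lost 13, the block 2 and leaving out at least 1 of the libraries in turn 22. None was lost without the filter. The share of piRNA signal over exact rows alone was 16.3% in oocytes, 15.6% in IVF and 15.5% in NT blastocysts, and with the cluster at any hit 20.2%, 19.3% and 18.7%; of all listed reads in oocytes it was 14.7% and 18.2%. Leaving out 1 library gave 17.4% to 17.7%, 16.5% to 17.04% and 16.3% to 16.7% of piRNA, and 15.5% to 15.9%, 4.12% to 5.11% and 2.94% to 3.88% of all listed reads. IVF morulae held 10.4% ± 8.62 of piRNA signal (n = 4) and 17.5% ± 1.09 without replicates 1 and 3.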
